A study of Spodoptera frugiperda with 15 samples.

Results

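Whole bodies of wild-type fall armyworm (Spodoptera frugiperda) exposed to cyantraniliprole were set against wild-type controls, with 3 poly(A) RNA-seq libraries in each group. The comparison covered the genes at 1 FPKM or more in 3 or more of these 6 libraries, which were 10438 of the 20784 genes listed. Of the 10438, 10436 entered the test and 8595 reached 1 FPKM in all 6 libraries. FPKM is a fragment count scaled to transcript length and library size. The same series holds 3 libraries each for emamectin benzoate, tetrazolidamide and spinetoram, which served as a second comparison. The labels give neither dose, exposure time, stage nor sex. They also leave unsaid if libraries of one group stem from different insects, so the p-values measure only the spread between these libraries, which may be technical. Gene names are the deposited descriptions, which rest on similarity to other species.

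Cyantraniliprole is an anthranilic diamide that binds the ryanodine receptor, the calcium release channel of the sarcoplasmic reticulum, and holds it open, so that the calcium stores of insect muscle empty and the larva stops feeding and becomes paralysed. Insects clear such compounds through oxidation by cytochrome P450s and hydrolysis by esterases, then conjugation by glutathione S-transferases (GSTs) and UDP-glycosyltransferases (UGTs), and export by ABC transporters. The midgut, lined by the chitinous peritrophic matrix, carries much of this enzyme load in caterpillars beside its digestive hydrolases.

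More genes were called higher than lower in cyantraniliprole libraries relative to control. At an adjusted p under 0.05 (edgeR quasi-likelihood test, Benjamini-Hochberg over the 15505 genes of the whole table that were tested), 381 members were called, 3.65% of those tested. Of these, 293 were higher after cyantraniliprole (2.81%) and 88 were lower (0.843%), with median log2 fold changes of 1.46 and -1.17. A change beyond 2-fold was seen for 237 of the higher and 58 of the lower genes, and beyond 4-fold for 76 and 17. In all 381 the FPKM of the 3 cyantraniliprole and the 3 control libraries did not overlap, against 24.4% of all members tested without such overlap. The calls rest on the same libraries, so their lack of overlap is not separate support for them. The FPKM rule fixed the lack of overlap for 93 members at 1 FPKM or more in only the cyantraniliprole libraries, and for 65 in only the controls. For these, lack of overlap adds no support. They include the cytokine receptor, elongase LOC118262014, CYP321A8 LOC118268604, LCP-17-like, pelle, surfeit locus protein 6 and Notch genes named below. They also include the called member with the lowest log2 fold change. The median log2 fold change over all members tested was 0.016, and 2488 of these 10436 members stood at an unadjusted p under 0.05. The list counts at an unadjusted p below are to be read beside that share. The calcium handling list (5 of 23) and the carbohydrate-digesting list (7 of 30) lie near it. The spread came from a model of all 15 libraries, and the error given with a log2 fold change is its standard error. When only the 6 libraries were fitted, no member was called by edgeR (1896 at an unadjusted p under 0.05, smallest adjusted p 0.0609), and DESeq2 on the 15 libraries called 1258, which included the 381. Genes named below beyond the 53 that a rule of size and p gave were chosen after their values were seen.

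**Figure D1:**
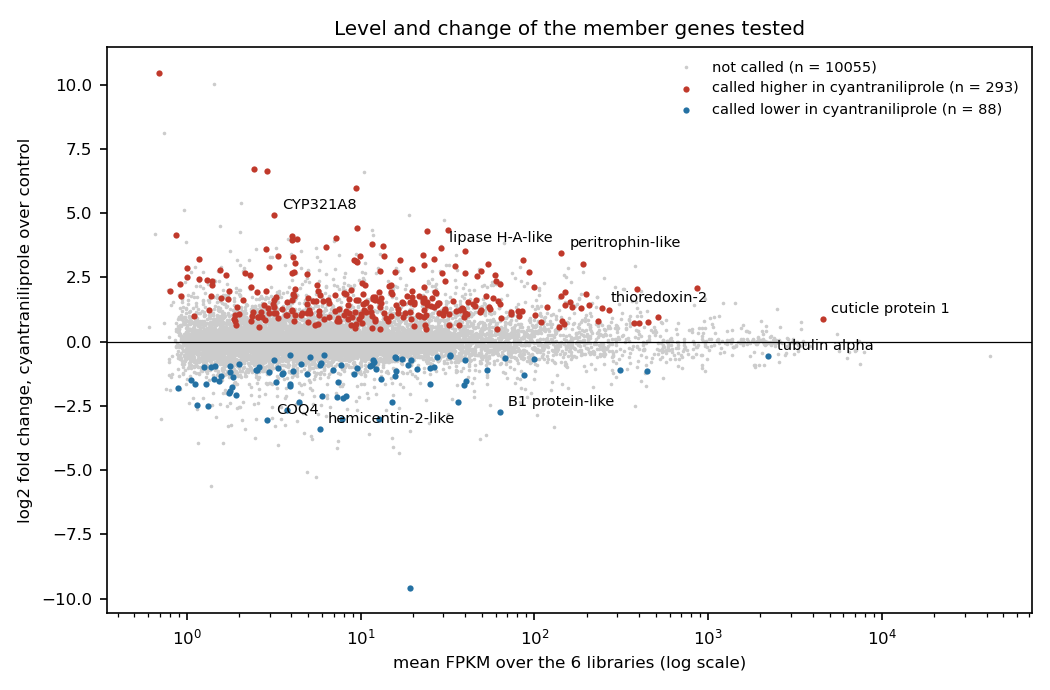
Each point is 1 of the 10436 member genes tested, with the mean FPKM over the 6 libraries on the x axis (log scale) and the log2 fold change of cyantraniliprole over control on the y axis. Red points are the 293 genes called higher, blue points the 88 called lower and grey points the genes not called. The called genes run from under 1 FPKM to cuticle protein 1 at the right, and red points outnumber blue ones at low, middle and high levels.

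Single libraries bore on many of these calls. Leaving out each of the 6 libraries in turn gave between 68 (without control 2) and 1036 called members (without control 3). Without control 1 it was 195, and without cyantraniliprole 1, 2 and 3 it was 108, 167 and 91. Of the calls, 51 of the 381 genes, 35 higher and 16 lower, kept their call in all 6 fits. A call below that is not said to have been kept was lost in at least 1 of them. No called gene changed sign in any of these fits. The library totals were 64030792 to 67603868 count units for cyantraniliprole and 55291297 to 62435344 for control. The cyantraniliprole libraries resembled each other more (correlation of log2 CPM across members 0.924 to 0.931) than the control libraries did (0.865 to 0.906). Tissue markers were uneven within groups: the 9 silk gland genes in the table summed to 2775 FPKM in cyantraniliprole 3, against 108.2 and 298.3 in the other cyantraniliprole libraries, and to 2745 FPKM in control 3, against 247.3 and 257.1. The axonemal and sperm genes summed to 566.7 FPKM in control 1, against 81.8 to 162.6 in the other 5 libraries. In whole bodies, fewer cells of a type and less RNA per cell cannot be told apart.

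The insecticide's target showed no called change. The table holds 2 genes described as ryanodine receptor. LOC118276673 had 25.8, 18.4 and 17.6 FPKM after cyantraniliprole, against 28.3, 26.5 and 18.8 FPKM in control (log2 fold change -0.30 ± 0.26, adjusted p = 0.54). LOC118277034 had 6.52, 6.97 and 6.56 FPKM after cyantraniliprole, against 9.38, 10.2 and 5.999 FPKM in control (log2 fold change -0.42 ± 0.29, adjusted p = 0.44). In both genes the groups overlapped, and control 3 lay below all 3 cyantraniliprole libraries for the second. The calcium pump of the sarcoplasmic reticulum, LOC118266866, which refills the store that the receptor empties, had 1620, 1308 and 1427 FPKM after cyantraniliprole, against 2222, 2594 and 1299 FPKM in control (log2 fold change -0.56 ± 0.27, adjusted p = 0.273). Junctophilin-1 (LOC118273069), which ties the reticulum to the plasma membrane, had 57.5, 50.1 and 50.5 FPKM after cyantraniliprole, against 113, 88.6 and 53.1 FPKM in control (log2 fold change -0.76 ± 0.30, adjusted p = 0.191). The FK506-binding protein of 12 kDa (LOC118277183), a ryanodine receptor partner in vertebrates, averaged 108 ± 11.5 FPKM in cyantraniliprole and 109 ± 3.7 FPKM in control (SD, n = 3 each; log2 fold change -0.072 ± 0.14, adjusted p = 0.816). None of the 23 tested ryanodine receptor and calcium handling genes was called by edgeR in either direction (5 at an unadjusted p under 0.05, DESeq2 1 lower, median log2 fold change -0.17). None of the 40 muscle structure genes was called either (5 at an unadjusted p under 0.05, DESeq2 2 lower, median -0.31). The summed FPKM of the muscle genes was 100200, 86010 and 81730 in the cyantraniliprole libraries, against 130300, 136400 and 84070 in the control libraries, so that control 3 lay among the treated libraries.

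Calpains, cytosolic proteases that calcium activates, were called in opposite directions. Calpain-A (LOC118276629) had 39.6, 42.8 and 38.95 FPKM after cyantraniliprole, against 18.6, 17.8 and 20.4 FPKM in control (log2 fold change 1.05 ± 0.12, adjusted p = 0.00325). Calpain-B (LOC118276618) had 13.2, 13.8 and 15.1 FPKM after cyantraniliprole, against 24.03, 30.5 and 29.7 FPKM in control (log2 fold change -1.05 ± 0.16, adjusted p = 0.00798). The groups did not overlap for either gene, the 2 fold changes were of about the same size, and both calls held whichever of the 6 libraries was left out.

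Each detoxification family listed had 1 or more members called higher, for esterases and ABC transporters at about the share of all members. Of the 93 tested cytochrome P450 genes 6 were called higher and 0 lower (6.45%, median log2 fold change 0.54), and of 31 UGT genes 4 and 0 (12.9%, median 0.68). Of 32 GST genes 3 and 0 were called (9.38%, median 0.11), and of 64 carboxyl/cholinesterase genes 2 and 1 (3.12% higher, median 0.60). Of 44 ABC transporter genes 1 and 0 were called (2.27%, median 0.29). Over all members tested, 2.81% were called higher. With the replicate block edgeR called 3 P450s, 3 UGTs, 1 GST, 4 carboxyl/cholinesterases and 1 ABC transporter higher. Of those P450s 1 was of the CYP3 clan and 2 of the CYP4 clan. In that fit 227 of the 10436 members were higher. Within the P450s, the CYP3 clan held 4 of the called genes among 45 (8.89%) and the CYP4 clan 2 among 30 (6.67%). Summed over the CYP3 clan, FPKM was 947.0, 696.0 and 662.3 in the cyantraniliprole libraries, against 324.8, 303.8 and 633.7 in the control libraries, with control 3 again nearest the treated libraries.

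Among the called P450s the largest rises were those of CYP321A8, of a P450 subfamily that in Helicoverpa zea oxidises plant toxins and insecticides. Of the 2 genes with that description, LOC118268604 had 8.31, 7.36 and 2.72 FPKM after cyantraniliprole, against 0.134, 0.01903 and 0.449 FPKM in control, which was 30.4-fold higher (log2 fold change 4.93 ± 1.11, adjusted p = 0.0403). The second copy, LOC118268605, had 10.2, 10.1 and 3.87 FPKM after cyantraniliprole, against 0.246, 0.252 and 1.01 FPKM in control, which was 15.9-fold higher (log2 fold change 3.995 ± 0.82, adjusted p = 0.0281). Cyantraniliprole 3 was the lowest treated and control 3 the highest control library for both copies, and reads may have been split between them. CYP6B68 (LOC118273914), of a subfamily named for furanocoumarin metabolism in swallowtail butterflies, was far more abundant, at 75.1, 42.8 and 47.4 FPKM after cyantraniliprole, against 31.2, 13.2 and 22.2 FPKM in control (log2 fold change 1.27 ± 0.30, adjusted p = 0.0457). A CYP6B7-like gene (LOC118279736) had 20.8, 20.7 and 14.04 FPKM after cyantraniliprole, against 2.32, 4.11 and 10.3 FPKM in control (log2 fold change 1.73 ± 0.40, adjusted p = 0.0445).

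Both called CYP4 clan genes were described as cytochrome P450 4C1-like. LOC118282370 had 5.699, 10 and 5.87 FPKM after cyantraniliprole, against 1.26, 0.609 and 1.32 FPKM in control (log2 fold change 2.699 ± 0.44, adjusted p = 0.013). LOC118275193 had 5.57, 3.63 and 4.55 FPKM after cyantraniliprole, against 1.33, 0.859 and 1.23 FPKM in control (log2 fold change 1.97 ± 0.38, adjusted p = 0.0242). Every treated library of either gene stood above the highest control library.

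UGTs add sugars to toxins and their oxidised products, which are then excreted. The UGT genes LOC118279189, LOC118279190 and LOC118279155 are neighbours within 24 kb, by the coordinates deposited with the counts, and were all called. LOC118279189 had 26.8, 33.8 and 13.9 FPKM after cyantraniliprole, against 1.89, 0.865 and 4.66 FPKM in control (log2 fold change 3.32 ± 0.57, adjusted p = 0.0155). LOC118279190 had 19.2, 23.4 and 7.22 FPKM after cyantraniliprole, against 1.396, 0.931 and 3.06 FPKM in control (log2 fold change 3.19 ± 0.63, adjusted p = 0.0254). LOC118279155 had 18.5, 24.7 and 8.16 FPKM after cyantraniliprole, against 3.53, 2.24 and 4.45 FPKM in control (log2 fold change 2.29 ± 0.49, adjusted p = 0.0336). In all 3, cyantraniliprole 2 was the highest and cyantraniliprole 3 the lowest treated library, and control 3 the highest control. UGT 33B15 (LOC118279154), described as of the same subfamily as LOC118279155, overlapped between groups, with 14.1, 12.7 and 12.9 FPKM after cyantraniliprole, against 14.3, 13.6 and 12.03 FPKM in control (log2 fold change -0.066 ± 0.20, adjusted p = 0.887). The remaining called UGT, LOC118277895, averaged 2.65 ± 0.378 FPKM in cyantraniliprole and 0.812 ± 0.339 FPKM in control (SD, n = 3 each; log2 fold change 1.67 ± 0.30, adjusted p = 0.0176).

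Among the GSTs, which couple glutathione to electrophiles, both called genes described as GST 1-like, LOC118277778 and LOC118277779, may be copies of one another that share reads. LOC118277778 had 72.04, 80.4 and 48.5 FPKM after cyantraniliprole, against 23.9, 24.9 and 25.1 FPKM in control (log2 fold change 1.39 ± 0.28, adjusted p = 0.027). LOC118277779 had 15.8, 21.9 and 9.82 FPKM after cyantraniliprole, against 4.69, 4.45 and 7.13 FPKM in control (log2 fold change 1.51 ± 0.33, adjusted p = 0.0356). An epsilon class GST (LOC118282243), of a class tied to insecticide resistance in mosquitoes, had 8.39, 5.57 and 7.03 FPKM after cyantraniliprole, against 0.588, 0.745 and 1.88 FPKM in control (log2 fold change 2.69 ± 0.58, adjusted p = 0.0336). The groups were separate for all 3 genes, and cyantraniliprole 2 was the highest library for both GST 1-like genes.

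Of 64 carboxyl/cholinesterases 2 were called higher (3.12%, near the 2.81% of all members) and 1 lower. A liver carboxylesterase B-1-like gene (LOC118276150) had 9.49, 6.06 and 6.79 FPKM after cyantraniliprole, against 0.504, 0.196 and 1.59 FPKM in control (log2 fold change 3.297 ± 0.57, adjusted p = 0.0163). An esterase E4-like gene (LOC118266136), named for an aphid esterase that sequesters organophosphates, had 29.6, 14.1 and 27.8 FPKM after cyantraniliprole, against 9.96, 5.297 and 3.93 FPKM in control (log2 fold change 1.83 ± 0.42, adjusted p = 0.0441). A cholinesterase 1-like gene (LOC118263178) was lower, at 2.01, 2.87 and 3.89 FPKM after cyantraniliprole, against 31.3, 12.4 and 24 FPKM in control (log2 fold change -3.01 ± 0.70, adjusted p = 0.0446). The ABC transporter G family member 20 gene (LOC118270342) averaged 4.38 ± 0.595 FPKM in cyantraniliprole and 1.97 ± 0.337 FPKM in control (SD, n = 3 each; log2 fold change 1.12 ± 0.23, adjusted p = 0.0283). Each detoxification call was lost when at least 1 library was left out, with adjusted p up to 0.165 without control 2 for the CYP6B7-like gene, 0.129 without control 2 for LOC118268604, 0.144 without cyantraniliprole 1 for the cholinesterase 1-like gene, and 0.0502 without control 2 for LOC118279189, whose other 5 fits kept the call. The 10 peritrophic matrix and midgut markers in the table, of which 8 met the FPKM rule and 1 of these was called higher, summed to 912.7 to 1112 FPKM in the cyantraniliprole libraries, against 220.4 to 919.2 FPKM in the control libraries, and their part in these results was not tested.

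**Figure D2:**
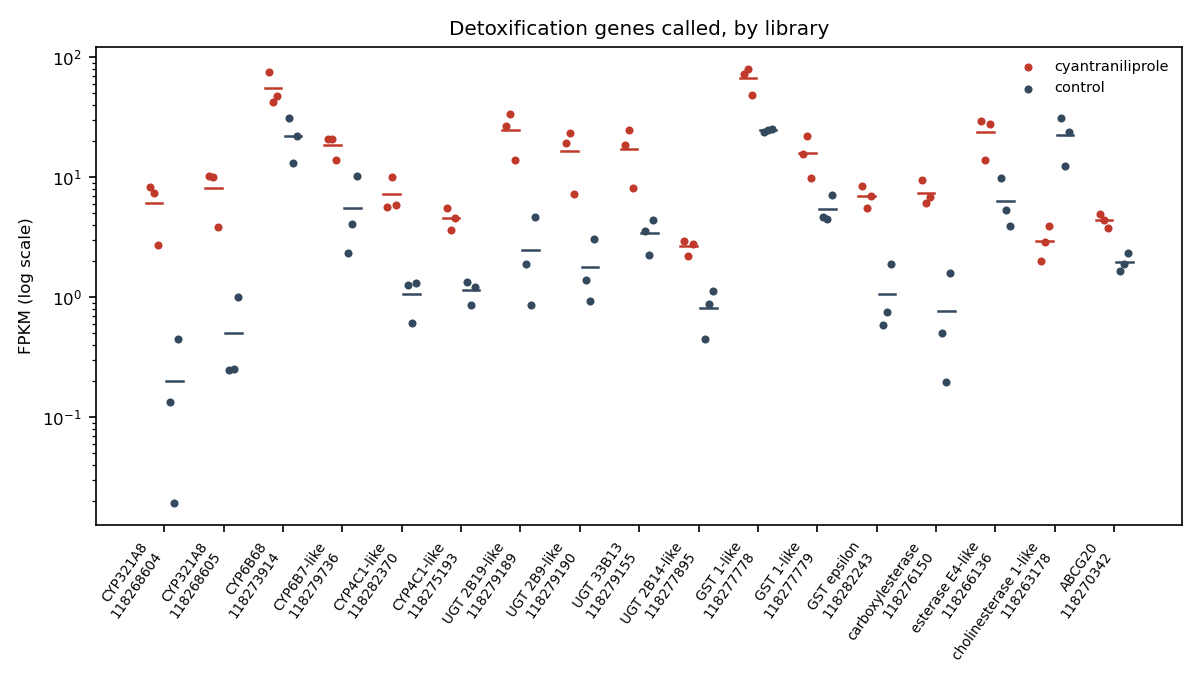
FPKM (log scale) of the 17 called detoxification genes in the 3 cyantraniliprole libraries (red, left) and the 3 control libraries (dark, right), with a bar at each group's mean. The red points lie above the dark points for every gene except the cholinesterase 1-like gene, where they lie below.

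Transcription factors known to drive detoxification genes in insects were partly called. The CncC pathway pairs cap'n'collar with a small Maf protein on antioxidant promoters, with Keap1 as the inhibitor. MafK (LOC118276889), the small Maf partner, had 31.98, 27.3 and 29.4 FPKM after cyantraniliprole, against 12.9, 11.3 and 19.4 FPKM in control (log2 fold change 0.99 ± 0.17, adjusted p = 0.0169). Cap'n'collar itself (LOC118281287) had 17.7, 9.79 and 14.1 FPKM after cyantraniliprole, against 6.17, 4.54 and 8.19 FPKM in control, without overlap between groups but short of the threshold (log2 fold change 1.12 ± 0.31, adjusted p = 0.0751). Keap1 (LOC118261881) had 12.6, 7.84 and 10.9 FPKM after cyantraniliprole, against 6.47, 2.44 and 10.1 FPKM in control, with overlap (log2 fold change 0.71 ± 0.43, adjusted p = 0.381). The nuclear receptor HR96 (LOC118270436), a xenobiotic receptor in Drosophila, had 2.25, 2.75 and 2.35 FPKM after cyantraniliprole, against 1.22, 1.08 and 1.59 FPKM in control (log2 fold change 0.87 ± 0.15, adjusted p = 0.0165). The AP-1 gene (LOC118265902), a Jun-type partner, averaged 184 ± 14.4 FPKM in cyantraniliprole and 104 ± 26.2 FPKM in control (log2 fold change 0.79 ± 0.17, adjusted p = 0.0362). The gene c-Fos (LOC118281924) averaged 13.98 ± 1.1 FPKM in cyantraniliprole and 9.26 ± 1.44 FPKM in control (SD, n = 3 each; log2 fold change 0.55 ± 0.12, adjusted p = 0.0352). The calls of MafK, HR96, AP-1 and c-Fos were each lost without at least 1 library, with adjusted p of 0.0796 without control 2, 0.082 without control 2, 0.147 without control 2 and 0.116 without cyantraniliprole 2.

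Thioredoxin-2 and glutaredoxin rose. Thioredoxin-2 (LOC118276635), which reduces disulfides in proteins, had 360.3, 396 and 309 FPKM after cyantraniliprole, against 138, 127 and 148 FPKM in control (log2 fold change 1.31 ± 0.14, adjusted p = 0.00278). Glutaredoxin (LOC118272111), which does so with glutathione, had 79.5, 97.6 and 78.1 FPKM after cyantraniliprole, against 42.5, 39.99 and 47.5 FPKM in control (log2 fold change 0.92 ± 0.13, adjusted p = 0.00711). Both kept their call in all 6 leave-one-out fits. A Cu-Zn superoxide dismutase-like gene (LOC118268790) averaged 70.2 ± 11.9 FPKM in cyantraniliprole and 28.6 ± 6.42 FPKM in control (log2 fold change 1.23 ± 0.28, adjusted p = 0.0387). The copper chaperone that loads this enzyme (LOC118280955) averaged 4.46 ± 0.795 FPKM in cyantraniliprole and 2.24 ± 0.682 FPKM in control (SD, n = 3 each; log2 fold change 0.94 ± 0.21, adjusted p = 0.0435). Peroxiredoxin-2-like (LOC118270450), which reduces peroxides with thioredoxin, was lower, at 30.5, 28.9 and 33.3 FPKM after cyantraniliprole, against 51.8, 53.2 and 40.3 FPKM in control (log2 fold change -0.71 ± 0.16, adjusted p = 0.0438). Of the 40 antioxidant genes tested 4 were called higher and 1 lower (10% higher, against 2.81% of all members, median log2 fold change 0.14). The fit with the replicate block called 2 of them higher and 0 lower. The neighbouring aldose reductase-like genes LOC118278591 and LOC118278592, carbonyl-reducing enzymes, were also higher, by log2 fold changes of 1.46 (adjusted p = 0.0315) and 1.504 (adjusted p = 0.0362). Of the 38 heat shock protein and chaperonin genes none was called by edgeR (6 at an unadjusted p under 0.05, DESeq2 2 lower, median -0.16).

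**Figure D3:**
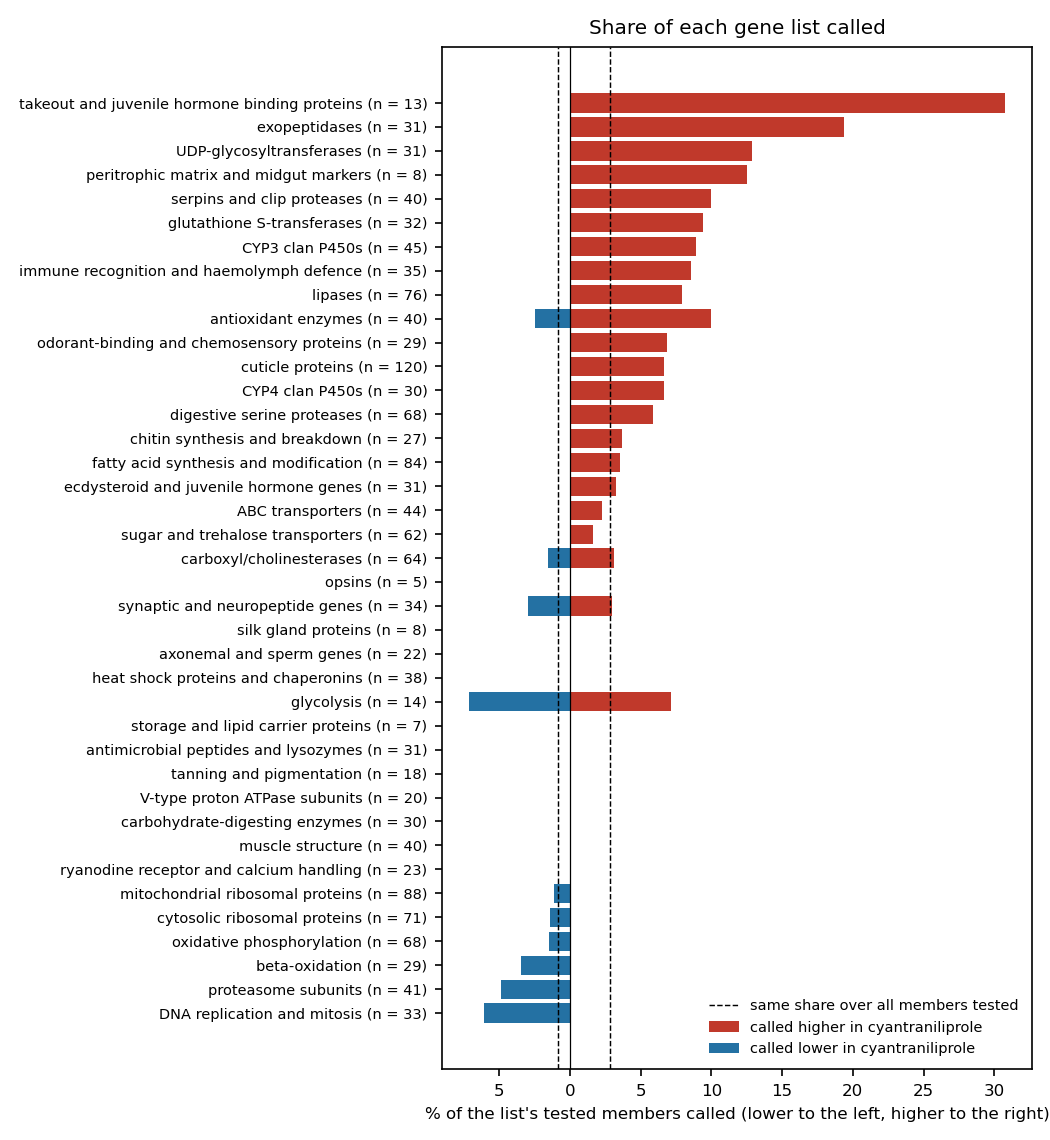
Share of the tested members of each gene list that were called, in %, with genes called higher in cyantraniliprole to the right and genes called lower to the left. Dashed lines mark the shares over all 10436 members tested, 2.81% higher and 0.843% lower. The longest bars to the right belong to takeout and juvenile hormone binding proteins and exopeptidases, and 11 lists have no called member.

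Some digestive proteases, peptidases and lipases rose, and edgeR and DESeq2 called no member of their 3 lists lower. Of 68 digestive serine proteases 4 were called higher (5.88%, median log2 fold change 1.22), of 31 exopeptidases 6 (19.4%, median 0.70) and of 76 lipases 6 (7.89%, median 1.07). The share called higher over all members was 2.81%. None of the 30 carbohydrate-digesting enzymes was called by edgeR (7 at an unadjusted p under 0.05, DESeq2 1 higher, median 0.47). None of the 20 V-type proton ATPase subunits, which energise midgut uptake, was called either (11 at an unadjusted p under 0.05, DESeq2 4 higher, median 0.43). With the replicate block edgeR called 2 digestive serine proteases, 5 exopeptidases and 8 lipases higher, against 227 of all 10436 members. The summed lipase level was 5352, 5757 and 8696 FPKM in the cyantraniliprole libraries, against 3201, 2206 and 3575 FPKM in the control libraries, without overlap. The summed level of the digestive serine proteases was 15300, 7206 and 20100 FPKM in the cyantraniliprole libraries, against 7907, 8601 and 5558 FPKM in the control libraries, where cyantraniliprole 2 lay within the controls.

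Chymotrypsinogen B-like LOC118268184, precursor of a gut endoprotease, had 254, 298 and 391 FPKM after cyantraniliprole, against 81.5, 72.3 and 99.98 FPKM in control (log2 fold change 1.84 ± 0.23, adjusted p = 0.00402). A trypsin CFT-1-like gene (LOC118274720) had 287, 117 and 310.1 FPKM after cyantraniliprole, against 45.3, 59.02 and 80.1 FPKM in control (log2 fold change 1.93 ± 0.43, adjusted p = 0.0387). A transmembrane protease serine 9-like gene (LOC118270475) had 202, 416 and 409 FPKM after cyantraniliprole, against 42.8, 31.3 and 47.2 FPKM in control, 8.09-fold higher (log2 fold change 3.02 ± 0.48, adjusted p = 0.0114). Its neighbour, mucin-5AC-like LOC118270206, had 31.3, 51.05 and 59.96 FPKM after cyantraniliprole, against 1.94, 2.095 and 11.4 FPKM in control (log2 fold change 3.21 ± 0.61, adjusted p = 0.0217). Aminopeptidases trim peptides at the brush border of the midgut and include the docking sites of Bt toxins. The membrane alanyl aminopeptidase-like gene LOC118268345 had 208, 168 and 289.9 FPKM after cyantraniliprole, against 51.3, 53.8 and 84.5 FPKM in control (log2 fold change 1.78 ± 0.27, adjusted p = 0.00798). The more abundant LOC118268536 had 344, 328 and 475 FPKM after cyantraniliprole, against 149.8, 108 and 216 FPKM in control (log2 fold change 1.24 ± 0.25, adjusted p = 0.0276). The neighbouring aminopeptidase N-like genes LOC118268089 and LOC118268090 rose by log2 fold changes of 1.33 (adjusted p = 0.0435) and 1.34 (adjusted p = 0.0241).

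Of the 6 called lipases, LOC118273165, LOC118273155 and LOC118281120 kept their calls in all 6 leave-one-out fits. The lipase member H-A-like gene LOC118273165 had 32.9, 81.03 and 47.3 FPKM after cyantraniliprole, against 4.69, 3.39 and 4.11 FPKM in control (log2 fold change 3.65 ± 0.48, adjusted p = 0.00424). The other H-A-like gene, LOC118273155, had 19.2, 34.5 and 21.8 FPKM after cyantraniliprole, against 1.38, 1.85 and 2.33 FPKM in control (log2 fold change 3.703 ± 0.48, adjusted p = 0.00424). The 2 genes may share reads. Lipase member H-like LOC118281120 had 21.6, 59.2 and 45.01 FPKM after cyantraniliprole, against 4.42, 3.91 and 2.95 FPKM in control (log2 fold change 3.38 ± 0.52, adjusted p = 0.0088). A pancreatic lipase-related protein 2-like gene (LOC118264914) had 8.73, 9.23 and 4.74 FPKM after cyantraniliprole, against 0.191, 0.204 and 1.06 FPKM in control (log2 fold change 3.94 ± 0.80, adjusted p = 0.0271). Its call was lost at 0.121 without control 2. The other called lipases, lipase member H-like LOC118273216 and bile salt-activated lipase-like LOC118276221, rose by 2.75 (adjusted p = 0.0254) and 1.55 (adjusted p = 0.0441) on the log2 scale. Chymotrypsinogen B-like and LOC118268345 also kept their calls in all 6 fits, the second at an adjusted p of 0.0499 without control 2.

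A peritrophin, a chitin synthase and 2 trehalases rose. Peritrophin-like LOC118274190, a chitin-binding protein of the peritrophic matrix, had 181, 269.5 and 337.1 FPKM after cyantraniliprole, against 24.04, 7.99 and 39.6 FPKM in control, 10.8-fold higher (log2 fold change 3.43 ± 0.56, adjusted p = 0.013). It kept its call in all 6 fits and was the 1 gene that edgeR called among 8 peritrophic matrix and midgut markers (12.5%, against 2.81% of all members). Of these markers DESeq2 and edgeR without control 3 called 3 higher each. Chitin synthase LOC118273105, whose description does not say if it serves gut or cuticle, had 33.03, 30.98 and 54.3 FPKM after cyantraniliprole, against 9.59, 7.05 and 19.2 FPKM in control (log2 fold change 1.698 ± 0.36, adjusted p = 0.031). Trehalases split trehalose, the sugar of insect blood. Trehalase LOC118264318 averaged 20.2 ± 4.59 FPKM in cyantraniliprole and 6.08 ± 2.26 FPKM in control (log2 fold change 1.698 ± 0.36, adjusted p = 0.0312). Trehalase LOC118264322 averaged 16.2 ± 3.32 FPKM in cyantraniliprole and 4.4 ± 2.42 FPKM in control (SD, n = 3 each; log2 fold change 1.85 ± 0.39, adjusted p = 0.0322). The facilitated trehalose transporter Tret1-like gene LOC118271571 was the 1 that edgeR called of 62 sugar and trehalose transporters, with 14.8 ± 2.67 FPKM in cyantraniliprole and 6.19 ± 2.38 FPKM in control (log2 fold change 1.23 ± 0.29, adjusted p = 0.0457). In that list DESeq2 called 9 higher and 3 lower, and edgeR without control 3 called 7 higher and 2 lower. With the replicate block edgeR called 0 of them. The 1 called in the main fit is 1.61% of the list, against 2.81% of all members.

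Further called genes with epithelial roles were picked after their values were seen. Mesh (LOC118271033), a septate junction protein of the Drosophila midgut, had 48.3, 49.5 and 67.1 FPKM after cyantraniliprole, against 27.8, 13.3 and 23.6 FPKM in control (log2 fold change 1.296 ± 0.27, adjusted p = 0.0276). The gap junction genes innexin inx7-like LOC118262604 and LOC118262995 rose by log2 fold changes of 1.21 (adjusted p = 0.027) and 1.17 (adjusted p = 0.027). Among actin-binding genes, the called ones given here are myosin-IB (LOC118269340) at 1.06 (adjusted p = 0.0411), plastin-2 (LOC118280711) at 1.21 (adjusted p = 0.0403) and cytoplasmic gelsolin-like (LOC118281208) at 1.195 (adjusted p = 0.0241), given as log2 fold changes.

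The 5 fucosylation genes given here were called higher and were picked after their values were seen. Alpha-(1,3)-fucosyltransferase C-like LOC118264447, which adds fucose to glycoproteins, had 8.01, 9.92 and 9.73 FPKM after cyantraniliprole, against 3.33, 2.24 and 3.43 FPKM in control (log2 fold change 1.56 ± 0.20, adjusted p = 0.00424). Its neighbour LOC118264571 had 2.27, 3.75 and 5.95 FPKM after cyantraniliprole, against 1.201, 0.2897 and 0.365 FPKM in control (log2 fold change 2.58 ± 0.53, adjusted p = 0.0285). Glycoprotein 3-alpha-L-fucosyltransferase A (LOC118278277) averaged 13.02 ± 2.17 FPKM in cyantraniliprole and 5.58 ± 1.09 FPKM in control (log2 fold change 1.17 ± 0.19, adjusted p = 0.013). The GDP-fucose transporter 1 gene (LOC118263468), which brings the donor into the Golgi, averaged 5.73 ± 1.87 FPKM in cyantraniliprole and 1.85 ± 0.239 FPKM in control (log2 fold change 1.55 ± 0.26, adjusted p = 0.0146). Mannose-1-phosphate guanyltransferase beta (LOC118281704), which makes the GDP-mannose that GDP-fucose comes from, averaged 18.6 ± 1.37 FPKM in cyantraniliprole and 10.3 ± 1.87 FPKM in control (SD, n = 3 each; log2 fold change 0.81 ± 0.12, adjusted p = 0.00838). LOC118264447 kept its call in each leave-one-out fit, and the others reached adjusted p of 0.107 without control 2, 0.0654 without cyantraniliprole 3, 0.0647 without control 2 and 0.0506 without cyantraniliprole 3.

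Called genes with a role in lipid handling, picked after their values were seen, are given first. A putative phosphatidate phosphatase gene (LOC118266400), of the enzyme family that makes diacylglycerol, had 22.2, 25.9 and 26.2 FPKM after cyantraniliprole, against 3.31, 4.25 and 8.104 FPKM in control (log2 fold change 2.22 ± 0.30, adjusted p = 0.00516). Its call held in all 6 leave-one-out fits. Fatty acid-binding protein 1-like (LOC118275187) had 127, 196 and 142 FPKM after cyantraniliprole, against 24.6, 5.65 and 19.2 FPKM in control (log2 fold change 3.18 ± 0.75, adjusted p = 0.0457). The Niemann-Pick type protein homolog 1B-like gene (LOC118267562), the sterol uptake protein of the Drosophila midgut, had 15.4, 11.99 and 17.9 FPKM after cyantraniliprole, against 4.93, 3.46 and 7.86 FPKM in control (log2 fold change 1.46 ± 0.27, adjusted p = 0.0209). The 3 called alpha-tocopherol transfer protein-like genes, whose vertebrate counterpart carries vitamin E, rose by log2 fold changes of 1.695 (LOC118274765, adjusted p = 0.0352), 1.21 (LOC118263738, adjusted p = 0.0176) and 1.09 (LOC118273628, adjusted p = 0.0468). An elongase of very long chain fatty acids (LOC118262014) was at 0 in the 3 control libraries and had 1.12, 1.69 and 1.37 FPKM in the cyantraniliprole libraries, at least 45.9-fold higher against a floor of 3 read pairs over the group (adjusted p = 0.0445, and 0.135 without control 2). Of 84 fatty acid synthesis and modification genes 3 were called higher and 0 lower (3.57%, against 2.81% of all members, median 0.35), led by the fatty acyl-CoA reductase LOC118280404 (log2 fold change 3.05 ± 0.67, adjusted p = 0.0362). Among 29 beta-oxidation genes 0 were called higher and 1 lower (median 0.17), 3-hydroxyacyl-CoA dehydrogenase type-2-like LOC118277867, with 4.25, 4.57 and 4.15 FPKM after cyantraniliprole, against 8.83, 6.67 and 6.92 FPKM in control (log2 fold change -0.85 ± 0.19, adjusted p = 0.0362). The share called lower over all members was 0.843%. With the replicate block edgeR called 0 genes of the fatty acid synthesis and beta-oxidation lists.

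Some cuticle protein genes rose. Of 120 cuticle protein genes tested 8 were called higher and 0 lower (6.67%, median log2 fold change 0.40). DESeq2 called 19 of them higher and 6 lower, and edgeR with the replicate block 5 higher and 0 lower. Over all 170 cuticle genes tested, members or not, the median was 0.044. The summed FPKM of the list overlapped, at 41150, 49410 and 41750 in the cyantraniliprole libraries against 45570, 45830 and 36930 in the control libraries. The larval cuticle protein LCP-30-like gene LOC118282342, a structural chitin-binding protein, had 1364, 1777 and 1064 FPKM after cyantraniliprole, against 420.2, 322 and 202 FPKM in control (log2 fold change 2.08 ± 0.37, adjusted p = 0.0173). Further LCP-30-like copies, LOC118276210 and LOC118276814, rose by 2.36 (adjusted p = 0.0305) and 2.54 (adjusted p = 0.0445) on the log2 scale, with cyantraniliprole 2 the lowest treated library for both. LCP-17-like LOC118280980 had 5.29, 4.23 and 6.44 FPKM after cyantraniliprole, against 0.755, 0.178 and 0.324 FPKM in control (log2 fold change 3.59 ± 0.71, adjusted p = 0.0254). Cuticle protein 1 (LOC118268279), among the most abundant genes that changed, had 5289, 7629 and 5128 FPKM after cyantraniliprole, against 3092, 3459 and 2775 FPKM in control (log2 fold change 0.89 ± 0.20, adjusted p = 0.0362). Its call was lost at 0.132 without cyantraniliprole 2. Cuticle protein 19-like LOC118262049 had 4.99, 8.39 and 9.802 FPKM after cyantraniliprole, against 2.61, 1.51 and 2.69 FPKM in control (log2 fold change 1.701 ± 0.26, adjusted p = 0.00798). It kept its call without any 1 library. Of 27 chitin synthesis and breakdown genes edgeR called 1 higher, the chitin synthase above (3.7%, against 2.81% of all members), while DESeq2 and edgeR without control 3 called 4 higher each and either limma fit 2. Of 18 tanning and pigmentation genes edgeR called none (5 at an unadjusted p under 0.05, DESeq2 3 higher). The other called cuticle genes, cuticle protein 19-like LOC118261963 and endocuticle structural glycoprotein ABD-5-like LOC118282374, rose by 2.03 (adjusted p = 0.0363) and 2.94 (adjusted p = 0.0464) on the log2 scale.

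A few immune recognition and protease genes rose. Of 35 immune recognition and haemolymph defence genes 3 were called higher and 0 lower (8.57%, median log2 fold change 0.38), and of 40 serpins and clip proteases 4 and 0 (10%, median 0.26). The share called higher over all members was 2.81%. The fit with the replicate block called 3 and 1 genes of these lists higher, against 227 of all 10436 members. The serine protease easter-like gene (LOC118280049), whose Drosophila namesake activates the Toll ligand, had 12.6, 14.9 and 16.4 FPKM after cyantraniliprole, against 3.92, 4.31 and 5.74 FPKM in control (log2 fold change 1.601 ± 0.18, adjusted p = 0.00278). Its call was kept in all 6 fits. The peptidoglycan-recognition protein LB-like neighbours, bacterial wall-cleaving proteins that dampen gut immunity in Drosophila, were at 44.8, 39.8 and 44.8 FPKM (LOC118274476) and 47.3, 22.8 and 34.4 FPKM (LOC118274475) in the cyantraniliprole libraries, against 16.5, 8.42 and 8.09 and 5.78, 5.005 and 3.59 FPKM in the control libraries (adjusted p = 0.0367 and 0.0381). A gene described as soluble scavenger receptor (LOC118274099) had 21.1, 9.695 and 19.9 FPKM after cyantraniliprole, against 1.61, 1.41 and 2.63 FPKM in control (log2 fold change 3.14 ± 0.65, adjusted p = 0.0283). It is the end of a run of 4 called neighbours within 24.8 kb. The kinase gene pelle (LOC118270684), of the Toll pathway, had 1.702, 1.33 and 1.34 FPKM after cyantraniliprole, against 0.3399, 0.566 and 0.312 FPKM in control (log2 fold change 1.79 ± 0.31, adjusted p = 0.0167). Scolexin B (LOC118269751), a coagulation-linked protease of caterpillar blood, averaged 171 ± 44.5 FPKM in cyantraniliprole and 66.02 ± 24.5 FPKM in control (SD, n = 3 each; log2 fold change 1.35 ± 0.28, adjusted p = 0.0285).

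The cytokine receptor gene LOC118281769 is known only by that description and had 1.85, 1.45 and 1.65 FPKM after cyantraniliprole, against 0.0736, 0.125 and 0.0614 FPKM in control, 17.7-fold higher (log2 fold change 4.15 ± 0.48, adjusted p = 0.0031). Its highest adjusted p with a library left out was 0.0151 without control 2. The 3 called genes of the LITAF family (lipopolysaccharide-induced tumor necrosis factor-alpha factor), membrane proteins of late endosomes, rose by log2 fold changes of 1.66 (LOC118263903, adjusted p = 0.0146), 1.59 (LOC118263906, adjusted p = 0.0355) and 1.34 (LOC118263907, adjusted p = 0.0217). GILT-like protein 2 (LOC118275994), a lysosomal thiol reductase, had 192, 222 and 308 FPKM after cyantraniliprole, against 65.7, 69.2 and 105 FPKM in control (log2 fold change 1.54 ± 0.28, adjusted p = 0.0176). A macrophage migration inhibitory factor homolog (LOC118264784) had 249.7, 268 and 281 FPKM after cyantraniliprole, against 87.8, 80.4 and 148 FPKM in control (log2 fold change 1.305 ± 0.23, adjusted p = 0.0176).

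Antimicrobial peptides and lysozymes, the killing effectors of the Toll and Imd pathways, gave no edgeR call among 31 tested genes (10 at an unadjusted p under 0.05, DESeq2 6 higher and 0 lower, median log2 fold change 1.44), although 17 had no overlap between groups and were higher in cyantraniliprole, against 15.6% of all members. Their summed level was 3123, 4551 and 3170 FPKM in the cyantraniliprole libraries, against 1585, 526.5 and 974.4 FPKM in the control libraries. Attacin-A-like LOC118270301 had 146, 106 and 122 FPKM after cyantraniliprole, against 21.2, 0.573 and 2.796 FPKM in control (log2 fold change 3.84 ± 1.31, adjusted p = 0.132). Lysozyme-like LOC118265131 had 488, 775 and 702 FPKM after cyantraniliprole, against 226, 84.96 and 174 FPKM in control (log2 fold change 1.95 ± 0.48, adjusted p = 0.0536). Gloverin-like LOC118279253 had 389.7, 571 and 484 FPKM after cyantraniliprole, against 227, 20.98 and 63.3 FPKM in control (log2 fold change 2.12 ± 0.82, adjusted p = 0.176). Control 2 was the lowest and control 1 the highest control for all 3 genes, and every treated library lay above control 1.

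Takeout-type genes, secreted lipid-binding proteins related to juvenile hormone carriers, had the highest share of called members among the lists. Of 13 tested, 4 were called higher and 0 lower (30.8%, against 2.81% of all members, median log2 fold change 0.17), while the summed level of the list overlapped between groups. The fit with the replicate block called 2 of the 13 higher. Takeout LOC118275983 had 17.4, 24.2 and 19.6 FPKM after cyantraniliprole, against 3.86, 4.64 and 7.32 FPKM in control (log2 fold change 1.91 ± 0.25, adjusted p = 0.00424). It kept its call in all 6 leave-one-out fits. LOC118276090 had 86.5, 120.1 and 101 FPKM after cyantraniliprole, against 14.2, 9.33 and 26.7 FPKM in control (log2 fold change 2.58 ± 0.49, adjusted p = 0.0217). The genes LOC118262190 and LOC118262191 had log2 fold changes of 1.55 (adjusted p = 0.0391) and 1.54 (adjusted p = 0.0468). Both calls were lost in every leave-one-out fit (adjusted p up to 0.123 without control 2 and 0.126 without control 1). Juvenile hormone epoxide hydrolase-like LOC118276057, of the enzyme that breaks this hormone down, had 5.48, 10.4 and 9.39 FPKM after cyantraniliprole, against 3.01, 2.01 and 2.98 FPKM in control (log2 fold change 1.59 ± 0.32, adjusted p = 0.0271). It was the 1 that edgeR called of 31 ecdysteroid and juvenile hormone genes (3.23%, against 2.81% of all members). Of these genes DESeq2 called 2 higher and 2 lower and either limma fit 2 higher. Odorant-binding protein LOC118267979, of a family that carries small hydrophobic molecules, had 244, 429 and 243 FPKM after cyantraniliprole, against 112, 96.6 and 116 FPKM in control (log2 fold change 1.43 ± 0.29, adjusted p = 0.0285). It was 1 of 2 called higher among 29 odorant-binding and chemosensory proteins (6.9%, against 2.81% of all members). None of the 70 odorant, gustatory and ionotropic receptor genes listed reached the FPKM rule.

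The transcription factor gene cwo (LOC118282412) was lower. Its product, clockwork orange, represses clock genes in Drosophila. It had 7.38, 6.86 and 7.36 FPKM after cyantraniliprole, against 15.1, 19.4 and 22.9 FPKM in control (log2 fold change -1.45 ± 0.15, adjusted p = 0.00278). Its highest adjusted p with 1 library left out was 0.0151 without control 2. The treated libraries lay close together, under all 3 controls, and the labels give no time of sampling.

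The falls included 4 neighbouring genes within 20.1 kb. Ubiquinone biosynthesis protein COQ4 homolog (LOC118262767), which acts in the making of the respiratory electron carrier, had 0.1803, 0.735 and 1.004 FPKM after cyantraniliprole, against 5.51, 3.35 and 6.68 FPKM in control (log2 fold change -3.06 ± 0.47, adjusted p = 0.00836). Surfeit locus protein 6 homolog (LOC118262766), a nucleolar protein of ribosome assembly, had 0.3396, 0.403 and 0.335 FPKM after cyantraniliprole, against 2.38, 2.07 and 1.39 FPKM in control (log2 fold change -2.49 ± 0.33, adjusted p = 0.00424). The mitochondrial ribosomal protein L51 gene (LOC118262605) had 2.23, 2.35 and 2.35 FPKM after cyantraniliprole, against 11.9, 8.28 and 9.08 FPKM in control (log2 fold change -2.13 ± 0.37, adjusted p = 0.0165). Protein arginine N-methyltransferase 5 (LOC118262765), which methylates splicing factors and histones, had 0.464, 0.781 and 1.03 FPKM after cyantraniliprole, against 2.97, 3.04 and 3.298 FPKM in control (log2 fold change -2.098 ± 0.27, adjusted p = 0.00424). Each treated library lay under each control for all 4 genes, and the calls of LOC118262767, LOC118262766 and LOC118262765 held without any 1 library, while L51 reached 0.0709 without cyantraniliprole 3. The labels do not say how strand was used in counting, so reads of overlapping neighbours may not be separate.

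The 4 genes of growth factor and cell fate signalling given here fell. Growth/differentiation factor 8-like (LOC118280801), of the ligand family of myostatin, which limits muscle growth in vertebrates, had 4.34, 6.78 and 4.495 FPKM after cyantraniliprole, against 19.8, 35.5 and 19.9 FPKM in control (log2 fold change -2.34 ± 0.42, adjusted p = 0.0176). Follistatin-A-like LOC118266290, of a family that binds activin-type ligands, had 1.299, 1.34 and 1.88 FPKM after cyantraniliprole, against 5.14, 10.3 and 6.42 FPKM in control (log2 fold change -2.34 ± 0.33, adjusted p = 0.00563). Another follistatin-A-like gene (LOC118266124) had 2.75, 1.56 and 1.55 FPKM after cyantraniliprole, against 4.92, 8.404 and 4.44 FPKM in control (log2 fold change -1.64 ± 0.37, adjusted p = 0.0416). Neurogenic locus Notch protein (LOC118262450), a receptor of cell fate choice, had 0.405 ± 0.00956 FPKM in cyantraniliprole and 1.37 ± 0.138 FPKM in control (SD, n = 3 each; log2 fold change -1.82 ± 0.24, adjusted p = 0.00424). The calls of LOC118266290 and Notch held in all 6 leave-one-out fits, LOC118280801 reached 0.0764 without cyantraniliprole 3, and LOC118266124 reached 0.149 without control 2.

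A few DNA replication genes fell. Of 33 DNA replication and mitosis genes 0 were called higher and 2 lower, against 0.843% of all members called lower (median log2 fold change -0.61). DESeq2 called 8 lower, and edgeR with the replicate block called 0. Of the 33, 13 were lower without overlap, against 8.81% of all members. Proliferating cell nuclear antigen (LOC118261842), the sliding clamp of the replication fork, had 8.03, 10.5 and 12.3 FPKM after cyantraniliprole, against 22.7, 27.5 and 14.6 FPKM in control (log2 fold change -1.15 ± 0.27, adjusted p = 0.0438). Mcm5 (LOC118275939), of the replicative helicase, had 3.9, 3.43 and 5.39 FPKM after cyantraniliprole, against 6.98, 9.52 and 6.06 FPKM in control (log2 fold change -0.89 ± 0.21, adjusted p = 0.0485). Outside that list, the DNA primase large subunit-like gene (LOC118273376), DNA topoisomerase 2 (LOC118272512) and cohesin subunit SA-1 (LOC118272898) had log2 fold changes of -1.53 (adjusted p = 0.0243), -1.66 (adjusted p = 0.0449) and -1.21 (adjusted p = 0.0114). PCNA reached an adjusted p of 0.152 without control 2, Mcm5 0.168 without control 2, primase 0.0956 without control 2 and topoisomerase 0.158 without control 2, while SA-1 stayed under the threshold.

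Proteasome and mitochondrial lists had negative medians and few edgeR calls, with more calls when control 3 was left out. Of 41 proteasome subunits edgeR called 2 lower and 0 higher, against 0.843% of all members called lower (median -0.31, 22 at an unadjusted p under 0.05, DESeq2 21 lower, edgeR without control 3 1 higher and 8 lower). Lower values without overlap were found for 19 of them, against 8.81% of all members. The 26S non-ATPase regulatory subunit 7 gene (LOC118273083) had 15.2, 22.4 and 13.1 FPKM after cyantraniliprole, against 30.8, 31.97 and 37.02 FPKM in control (log2 fold change -1.03 ± 0.21, adjusted p = 0.0275). The subunit 2 gene (LOC118268796) had 12.5, 19.2 and 13.7 FPKM after cyantraniliprole, against 25.1, 25.6 and 21.6 FPKM in control (log2 fold change -0.74 ± 0.17, adjusted p = 0.0438). Cyantraniliprole 2 was the highest treated library for both. NADH dehydrogenase flavoprotein 2 (LOC118272875), of respiratory complex I, had 18.3, 19.96 and 20.1 FPKM after cyantraniliprole, against 65.9, 73.9 and 36.7 FPKM in control (log2 fold change -1.68 ± 0.27, adjusted p = 0.0114). It kept its call in all 6 fits and was the 1 gene that edgeR called of 68 oxidative phosphorylation genes (median -0.38). In that list 29 genes stood at an unadjusted p under 0.05 and 14 lay lower without overlap, DESeq2 called 10 lower, and edgeR without control 3 called 39 lower. L51 above was the 1 gene that edgeR called of 88 mitochondrial ribosomal protein genes (median -0.41). In that list 34 genes stood at an unadjusted p under 0.05 and 25 lay lower without overlap, DESeq2 called 1 higher and 9 lower, and edgeR without control 3 called 12 lower. Among 71 cytosolic ribosomal protein genes edgeR called L21 (LOC118263860), with 199, 196 and 208 FPKM after cyantraniliprole, against 488, 366.7 and 399 FPKM in control (log2 fold change -1.11 ± 0.26, adjusted p = 0.0447). The median of that list was -0.032, with 8 genes at an unadjusted p under 0.05, while DESeq2 called 2 higher and 4 lower and edgeR without control 3 called 4 lower. Of 14 glycolysis genes hexokinase type 2 (LOC118276330), the entry step, was higher (log2 fold change 0.95 ± 0.21, adjusted p = 0.0362). In the same list fructose-bisphosphate aldolase (LOC118274664) was lower (log2 fold change -1.32 ± 0.31, adjusted p = 0.0457). The median of that list was -0.51 and 9 genes stood at an unadjusted p under 0.05. DESeq2 called 1 higher and 3 lower, and edgeR without control 3 called 1 higher and 10 lower. The fit without control 3 gave the most calls of the 6 leave-one-out fits (1036 members, against 68 to 195 in the others). With the replicate block edgeR called 0 glycolysis and 0 cytosolic ribosomal protein genes. It then called 2 proteasome subunits, 1 oxidative phosphorylation gene and 1 mitochondrial ribosomal protein gene lower. Muscle genes had the summed levels given above, highest in controls 1 and 2, and their part in these results was not tested.

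The other named falls came from varied genes. Hemicentin-2-like (LOC118274152), an extracellular matrix protein, had 0.799, 1.43 and 0.81 FPKM after cyantraniliprole, against 3.48, 12.6 and 15.8 FPKM in control (log2 fold change -3.41 ± 0.68, adjusted p = 0.026). It was the largest fall among called members with an informative description. Zinc transporter ZIP1-like (LOC118275525), an importer, had 13.97, 10.7 and 11.6 FPKM after cyantraniliprole, against 57.02, 62.05 and 62.3 FPKM in control (log2 fold change -2.37 ± 0.51, adjusted p = 0.0336). Zinc transporter 2-like (LOC118274039), of the exporting family, was higher at 7.69, 12.1 and 13.8 FPKM after cyantraniliprole, against 5.38, 4.81 and 7.13 FPKM in control (log2 fold change 0.90 ± 0.18, adjusted p = 0.0263). B1 protein-like LOC118279913 averaged 17.1 ± 5.8 FPKM in cyantraniliprole and 109.6 ± 39.7 FPKM in control (log2 fold change -2.74 ± 0.58, adjusted p = 0.0331). A gamma-aminobutyric acid receptor subunit delta-like gene (LOC118266945), of an inhibitory chloride channel family, averaged 1.92 ± 0.554 FPKM in cyantraniliprole and 5.96 ± 2.87 FPKM in control (SD, n = 3 each; log2 fold change -1.74 ± 0.39, adjusted p = 0.0382). Among abundant genes, tubulin alpha chain (LOC118280629) had 1510, 1794 and 2156 FPKM after cyantraniliprole, against 2426, 2595 and 2808 FPKM in control (log2 fold change -0.58 ± 0.14, adjusted p = 0.0465). Histidine triad nucleotide-binding protein 1-like (LOC118279746) had 54.3 ± 6.01 FPKM in cyantraniliprole and 81.7 ± 3.61 FPKM in control (log2 fold change -0.65 ± 0.12, adjusted p = 0.0176) and mago nashi (LOC118262509), of the exon junction complex, had 78.3 ± 5.08 FPKM in cyantraniliprole and 119.7 ± 10 FPKM in control (SD, n = 3 each; log2 fold change -0.68 ± 0.13, adjusted p = 0.0232). Tubulin alpha lost its call in 5 of 6 leave-one-out fits (adjusted p up to 0.16 without cyantraniliprole 1). Of 34 synaptic and neuropeptide genes 1 was called higher, synaptobrevin-1 (LOC118263693, log2 fold change 0.48 ± 0.12, adjusted p = 0.0496), and 1 lower, the delta-like subunit above. The 1 called higher is 2.94% of that list, against 2.81% of all members. The edgeR test called no gene among 5 opsins and 8 silk gland genes (0 at an unadjusted p under 0.05 in each list), 22 axonemal and sperm genes (2 at an unadjusted p under 0.05) and 7 storage and lipid carrier genes (2 at an unadjusted p under 0.05), and DESeq2 called 1 storage gene lower.

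**Figure D4:**
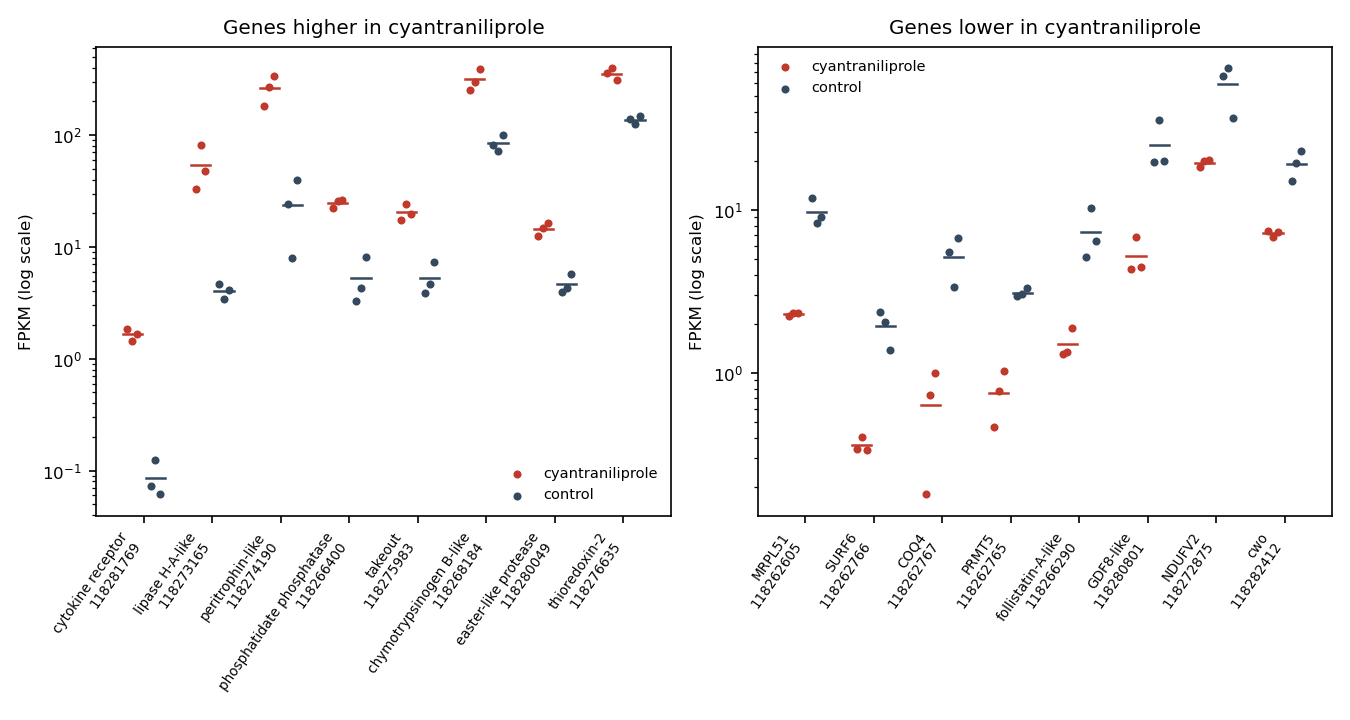
FPKM (log scale) of 8 genes higher and 8 genes lower in cyantraniliprole, with the 3 cyantraniliprole libraries in red on the left of each gene, the 3 control libraries dark on the right and a bar at each mean. The groups do not overlap for any of the 16 genes, and the treated libraries of cwo and L51 lie closer together than their controls.

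Against the other 3 insecticides, cyantraniliprole libraries were higher for 192 members (1.84%) and lower for 38 (0.364%), 230 in all (2.2%), in a contrast that used no control library but shares the cyantraniliprole libraries with the comparison above. The FPKM rule counted only cyantraniliprole and control libraries, so genes at 1 FPKM only in the other insecticides were left out. The excess of higher over lower calls, and the list shares in this contrast, may follow in part from that rule. Over all 15505 genes tested, 259 were called. Without cyantraniliprole 2 or 3 the contrast gave 28 and 31 calls among members, and with each of the other 10 libraries left out between 122 and 256. Of the P450s, 10 of the 45 tested CYP3 clan genes were called higher and 0 lower, and 7 of the 8 CYP321A genes were among them. CYP321A8 LOC118268605 averaged 8.08 FPKM in cyantraniliprole, against 0.908 in emamectin benzoate, 0.153 in tetrazolidamide and 2.48 in spinetoram (log2 difference 3.38 ± 0.54, adjusted p = 0.0127). CYP321A10 LOC118268549 averaged 8.35 FPKM in cyantraniliprole, against 2.55, 0.103 and 0.632 FPKM in the same 3 groups (log2 difference 3.78 ± 0.72, adjusted p = 0.0243). Cyantraniliprole 3 stood at 1.52 FPKM beside 10.6 and 12.9 in the other treated libraries. Against control that gene did not pass (log2 fold change 2.47 ± 1.005, adjusted p = 0.196), nor did its copy LOC118268617 (adjusted p = 0.171), both CYP321A7 copies (0.121 for LOC118268527 and 0.0905 for LOC118268618) and both CYP321A9 copies (0.157 for LOC118268486 and 0.125 for LOC118268506). Reads may have been split within each pair of copies. CYP6B68 was at 75.1, 42.8 and 47.4 FPKM in cyantraniliprole, against 19, 17.02 and 16.1 in emamectin benzoate, 6.88, 6.88 and 5.499 in tetrazolidamide and 22.4, 26.3 and 25.98 in spinetoram (log2 difference 1.84 ± 0.22, adjusted p = 0.00725). This call held with any 1 of the 12 libraries left out. In the same 12 fits CYP321A8 LOC118268605 lost its call in 1 (adjusted p = 0.0649 without cyantraniliprole 2) and LOC118268604 in 7.

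**Figure D5:**
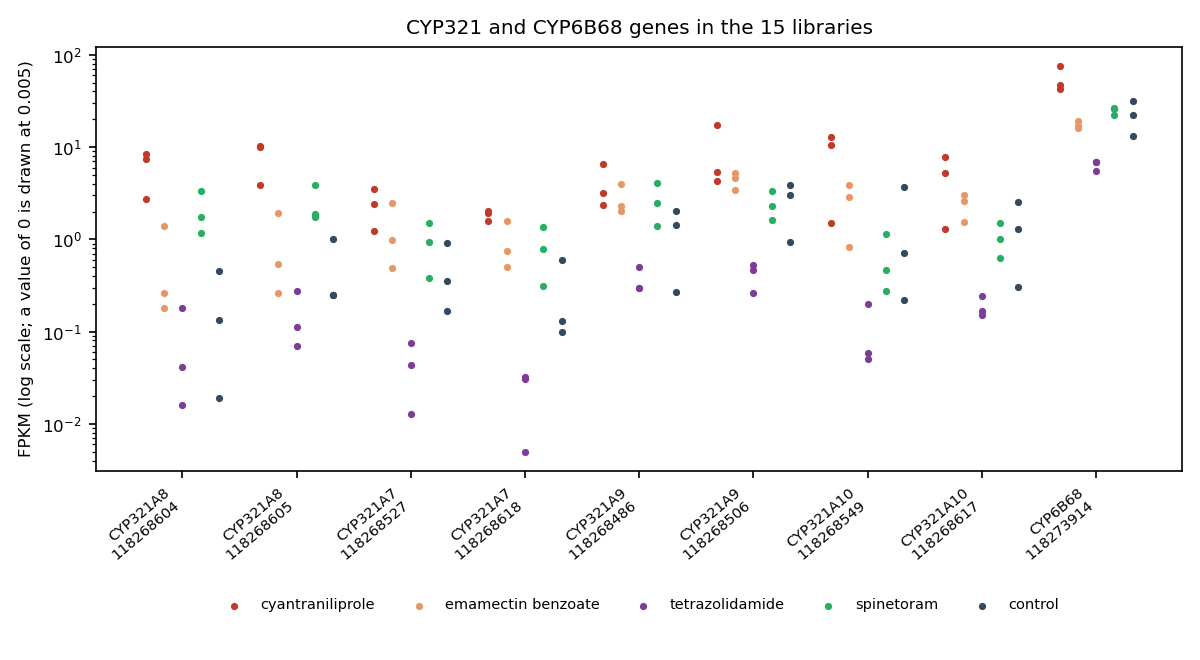
FPKM (log scale) of the 8 CYP321A genes and CYP6B68 in all 15 libraries, with cyantraniliprole in red on the left of each gene, then emamectin benzoate, tetrazolidamide and spinetoram, and control at the right. Every tetrazolidamide library lies below every cyantraniliprole library of the same gene, the cyantraniliprole libraries reach the highest value of each gene, and the 1 value of 0 is drawn at 0.005.

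Other genes were also higher in cyantraniliprole than in the other insecticides. The neighbouring UGT genes LOC118279189 and LOC118279190 were higher (log2 difference 1.99 ± 0.39, adjusted p = 0.0273 for the first and log2 difference 2.35 ± 0.43, adjusted p = 0.0221 for the second), and without cyantraniliprole 2 their adjusted p was 0.151 and 0.123. Heat shock protein 22-like (LOC118277109), a small chaperone, was at 173 FPKM in cyantraniliprole, against 11.4 in emamectin benzoate, 10.2 in tetrazolidamide and 120.1 in spinetoram (log2 difference 2.68 ± 0.34, adjusted p = 0.00725). Control stood at 191 FPKM and the difference from it was not called (log2 fold change -0.16 ± 0.46, adjusted p = 0.883). The ecdysone-response gene HR3 (LOC118279845) was at 5.82, 16.6 and 8.104 FPKM in cyantraniliprole, against means of 0.484, 0.3497 and 4.72 in the same 3 groups (log2 difference 3.27 ± 0.48, adjusted p = 0.0109). It stood at 10.3, 4.47 and 34.1 FPKM in control. A Kazal-type serine protease inhibitor gene (LOC118271635) was higher than in the insecticides and in control (log2 difference 2.19 ± 0.34, adjusted p = 0.0114 against the insecticides, log2 fold change 2.203 ± 0.47, adjusted p = 0.0334 against control).

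The gene cwo was lower than in the other insecticides (log2 difference -1.27 ± 0.13, adjusted p = 0.00288). Its means were 7.201 FPKM in cyantraniliprole, 7.76 in emamectin benzoate, 29.6 in tetrazolidamide and 16.6 in spinetoram. Pupal cuticle protein C1B-like (LOC118272785) was at 0.401 FPKM in cyantraniliprole, against 1.95 in emamectin benzoate, 143 in tetrazolidamide and 48.6 in spinetoram (log2 difference -5.99 ± 0.89, adjusted p = 0.0109). Against control this gene was not called (log2 fold change -2.18, adjusted p = 0.186). The call of cwo held with any 1 of the 12 libraries left out, and emamectin benzoate had the mean nearest to that of cyantraniliprole. Protein dj-1beta-like (LOC118280308), an oxidative stress protein in Drosophila, was lower than in the insecticides and in control (log2 difference -0.95 ± 0.14, adjusted p = 0.0103 against the insecticides, log2 fold change -0.89 ± 0.16, adjusted p = 0.0167 against control). Zinc finger protein GLIS2-like (LOC118262860) lay between, at 25.9 FPKM in cyantraniliprole, 77.4 FPKM in emamectin benzoate, 57.4 in tetrazolidamide, 32.7 in spinetoram and 9.02 FPKM in control. It was called higher than control (log2 fold change 1.49 ± 0.22, adjusted p = 0.00712), a call kept in all 6 fits. It was called lower than the insecticides (log2 difference -1.18 ± 0.19, adjusted p = 0.0127).

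Some called genes lay side by side. Among members in genome order, 26 runs of 2 or more neighbours were called in the same direction, holding 62 genes, of which 56 were higher and 6 lower, and 6 runs held 3 or more genes. Over all members 2.81% were called higher and 0.843% lower. How many such runs a random order of the calls would give was not tested. Besides the UGT, scavenger receptor and COQ4 runs, 3 serine hydrolase-like genes within 40.4 kb rose by log2 fold changes of 1.63 (LOC118278625), 1.23 (LOC118279003) and 1.79 (LOC118278632). Neighbours of like description may be copies of one another that share reads. The genes of the COQ4 run have unlike descriptions. Of the 381 called members, 268 had an informative description, 200 higher and 68 lower. The others have no description or are named only as uncharacterized or hypothetical proteins. One of these, LOC118270538, had the lowest log2 fold change of all called members, with 0, 0 and 0.144 FPKM after cyantraniliprole, against 2.999, 11.25 and 101 FPKM in control (adjusted p = 0.0356). Control 3 alone held most of its signal.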

How the data were processed

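Whole-body poly(A) RNA was sequenced in 5 groups of 3 libraries. The deposited table gives, per the file headers, an estimated count and an FPKM value for each gene and library, both made by the authors. The submitters' processing notes name DESeq2, edgeR, StringTie 1.3.4d, HISAT2 2.0.4 and cutadapt 1.9 without roles, and the genome build is not given in the sources used here. The estimated counts were whole numbers in steps of about 3.71 units a read pair, so the totals of 50600821 to 77183281 units a library overstate the reads behind a value.

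Levels are the deposited FPKM values, with the placeholder of 1e-04 taken as 0. Changes came from edgeR 4.0.16 (R 4.3.3) on the estimated counts as deposited: genes passing filterByExpr with a minimum count of 10, TMM scaling, 1 coefficient a group over 15 libraries, the quasi-likelihood test, and Benjamini-Hochberg adjustment over 15505 genes with a threshold of 0.05. The second contrast set cyantraniliprole against the mean of the other 3 insecticides. Genes were named by a rule: the 8 largest rises and falls among called members with an informative description, the 5 most abundant called genes in each direction, the called member with the smallest p in each list and direction, the member with the smallest p in each detoxification list, and both ryanodine receptor genes. The members and the 41 gene lists, matched by description, were chosen with earlier results of these data known. Alternatives were DESeq2 1.42.0, other scaling and filters, a fit of the 6 libraries alone, limma 3.58.1 on log2(FPKM + 1) and log2(FPKM + 0.1), a replicate block, and each library left out. The scripts were tested on simulated data.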

Additional observations from a re-analysis of the deposited data

How the results depend on the processing

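No called member changed direction under any alternative run. Against control, edgeR called 381 members (76.9% higher). The count was 1258 with DESeq2 (63.1% higher), 0 when only the 6 libraries were fitted, 368 with DESeq2 size factors, 313 without the filter, 563 when only the genes of the FPKM rule were fitted (67.0% higher), 449 with counts divided by the units of a read pair, and 525 and 488 with limma on log2(FPKM + 1) and log2(FPKM + 0.1). With each library left out it was between 68 and 1036. Against the other insecticides, the 230 calls (83.5% higher) became 788 with DESeq2 (65.9% higher), 254 and 253 with limma, and between 28 and 256 with each of 12 libraries left out. The limma fits moved the median of all members in that contrast to 0.139 and 0.177, against 0.019 in the edgeR fit. Of 151 called genes followed one by one, all 151 lost their call when only the 6 libraries were fitted, 52 with the replicate block, between 17 and 117 with 1 library left out, 22 without the filter, 8 with either limma fit and 6 with DESeq2 size factors. The cause of these differences was not tested.

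The labels number the replicates in each group without saying what a number shares. The correlations of same-numbered deviations were 0.192, -0.072 and 0.009, so the numbers were not treated as pairs. Such correlations cannot show if same-numbered libraries share an origin. The summed silk gland genes were highest in replicate 3 of both groups. A replicate block gave 273 calls against control, 238 of them among the 381, and 80 against the other insecticides. Not every library correlated best with its own number.

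With 3 libraries a group and a biological coefficient of variation of 54.8%, power to call small changes was limited, and genes near 1 FPKM rest on few read pairs.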
